A study of Mus musculus with 30 samples.

Results

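DC3.2 is a mouse dendritic cell line, and in the cells labelled IRF2KO the response to IFNγ was set against the response to IFNα. The comparison takes 4 of the 30 RNA sequencing libraries of the series: 2 libraries of IRF2KO cells treated for 2 h with IFNγ at 2 ng/mL and 2 of IRF2KO cells treated for 2 h with IFNα at 5000 U/mL. The titles of these libraries read IRF2sg, and those of the cells labelled WT read nosg. The doses are in different units, so a difference between the interferons is a difference between these doses. The series as a whole has 24 replicated libraries in 12 groups of 2 (WT, IRF1KO, IRF2KO and, with both factors targeted, DKO, each in media, IFNα or IFNγ) and 6 single libraries of WT and IRF2KO cells. It asks how the 2 interferon regulatory factors shape transcription with and without interferon. The labels give no targeting control, do not say whether a line is 1 clone and do not call replicates separate cultures. The p-values therefore cover only the spread between these samples, and the label of a line and other differences of that line cannot be told apart.

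Type I interferons such as IFNα act through the complex ISGF3, which holds STAT2 and IRF9 and binds the interferon-stimulated response element (ISRE) of antiviral genes. The type II interferon IFNγ acts mainly through gamma-activated sites (GAS) and induces IRF1 and the large GTPases that attack vacuoles holding pathogens. IRF2 also binds ISRE sequences and is known mainly as a repressor that competes with IRF1, and as an activator of some genes.

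All values are TPM, a share of the transcripts of a library, which keep no read totals and leave the depth unknown. In the 4 libraries, 10964 to 11016 genes were at or above 1 TPM. Across genes, which are not independent replicates, the 2 libraries of a group correlated with Pearson r of 0.981 for IFNα and 0.986 for IFNγ. Irf2 itself had 26.8 and 28.5 TPM with IFNα and 22.3 and 22.1 with IFNγ in IRF2KO, against 42.1 and 30.5 and against 33.3 and 30.6 in WT. Irf2 mRNA can persist after an edit that stops its translation, and the label is not checked by these levels. Of 14 dendritic cell markers, 7 stayed under 1 TPM in all 6 IRF2KO libraries with or without interferon (Flt3 and Cd209a at 0 TPM, and Xcr1, Clec9a, Siglech, Ly75 and Itgae), while Itgax, Batf3, Id2 and Irf8 were present. Of 15 macrophage and monocyte markers 1 stayed under 1 TPM, and their summed level was 2980 to 3303 TPM with IFNα and 3030 to 3084 with IFNγ. All 12 lymphocyte markers and all 10 fibroblast and stromal markers were under 1 TPM. Fewer cells of a type and less RNA per cell cannot be told apart in such bulk samples.

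Genes higher with IFNγ were led by Tubb3, Tgtp1, BC023105, Enc1 and Iigp1, with Irf8 and Irf1 further down, and genes higher with IFNα by Ifit1, Isg15, Cmpk2, Rtp4, Usp18, Irf7 and Mx1. A limma model on log2(TPM + 1), with p-values adjusted over 11842 genes, called 28 genes higher with IFNγ (0.236% of those tested) and 69 higher with IFNα (0.583%) at an adjusted p under 0.05. In all 97, both libraries of one interferon lay above both of the other, which gives the difference 1 sign in both replicate numbers. The 97 were called from these same libraries, so this describes the calls and is no further evidence for them. The share of all genes tested that separate in this way is not given. With the replicate number as a block limma called 47 and 101 genes. A difference of at least 1 on the log2 scale was reached by 21 of the 28 and 55 of the 69, and one of at least 3 by 1 and 12. The median difference was 1.40 over the 28 genes and −1.37 over the 69, against −0.05 over all genes tested. Of the 97 genes, 47 stayed called whichever of the 4 libraries was left out. Below, a difference is IFNγ minus IFNα in IRF2KO on the log2(TPM + 1) scale with its SE from limma. This scale understates the change of genes of a few TPM. The gene lists used below were chosen with earlier results of these data known. A count of called members thus describes a list and is no independent support for it.

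**Figure D1:**
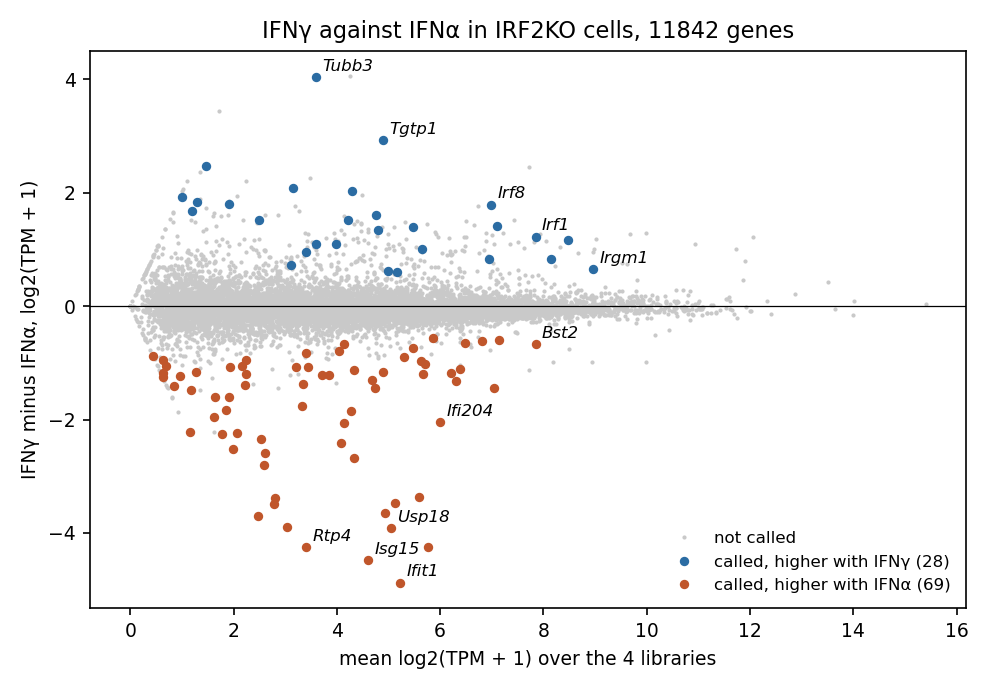
Each point is 1 of 11842 genes, with its mean log2(TPM + 1) over the 4 libraries on the horizontal axis and the difference IFNγ minus IFNα in IRF2KO on the vertical axis. The 69 genes called higher with IFNα reach −4.87 (Ifit1), and the 28 called higher with IFNγ reach 4.03 (Tubb3), and grey points were not called.

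Among the transcription factors, Irf8 (chr8:120736358-120756694 in GRCm38.p6), a lineage factor of dendritic cells and macrophages, was higher with IFNγ. It had 71.1 and 63.3 TPM with IFNα and 258 and 212 TPM with IFNγ (45.3 and 51.9 in media), a difference of 1.79 ± 0.14 (adjusted p = 1.07e-06, limma). Both IFNγ libraries lay above both IFNα libraries, and the IFNα libraries lay above those in media by an amount that did not pass the test (0.46, adjusted p = 0.293). Irf1 (chr11:53770014-53778374), which drives many IFNγ-induced genes, had 160 and 140 TPM with IFNα and 367 and 336 with IFNγ, from 17.7 and 23.2 in media. It was thus induced by both interferons and higher with IFNγ by 1.22 ± 0.17 (adjusted p = 9.36e-04). Batf2, a factor of the AP-1 family, had 1.64 and 0.56 TPM with IFNα and 7.72 and 4.73 with IFNγ, a difference of 1.80 ± 0.33 (adjusted p = 0.00871), which was no longer called without the first IFNγ library (1.5) or the second IFNα library (1.42), or with a pseudocount of 0.1 (2.52). Bcl6, a transcriptional repressor, had 2.76 and 2.00 TPM with IFNα and 8.56 and 8.58 with IFNγ (1.51 ± 0.21). For Irf7 (chr7:141263183-141266499), the factor that amplifies type I interferon production, the order was the opposite: 35.9 and 26.4 TPM with IFNα against 1.28 and 1.01 with IFNγ and 0.41 and 0.27 in media (−3.89 ± 0.21, adjusted p = 1.86e-08). Of 11 tested members of the IRF family, 2 were higher with IFNγ and 1 with IFNα. Irf9, the DNA-binding subunit of ISGF3, had 28.0 and 24.1 TPM with IFNα and 17.8 and 17.2 with IFNγ (−0.55 ± 0.14, adjusted p = 0.163).

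The immunity-related GTPases, which coat and disrupt vacuoles around intracellular pathogens, were induced by both interferons, and 5 of 10 tested members were higher with IFNγ. No member was called higher with IFNα, and the median difference was 0.66. A fit of the compared groups alone, which leaves 2 residual degrees of freedom, called 0 of the 10. Tgtp1 was listed at 0 TPM in both media libraries, at 9.49 and 10.2 with IFNα and at 92.0 and 71.2 with IFNγ. Its difference of 2.92 ± 0.22 (adjusted p = 4.31e-07) came to an 8.30-fold higher mean TPM with IFNγ. Iigp1 had 7.63 and 9.96 TPM with IFNα and 38.0 and 39.5 with IFNγ (2.03 ± 0.25, adjusted p = 1.88e-04). Tgtp2, a near-identical neighbour of Tgtp1, stood at 91.0 and 76.2 against 233 and 213 TPM (1.41 ± 0.30); reads that fit both genes are divided by the quantification, so their separate levels are uncertain. Igtp (Irgm3) had 242 and 233 TPM with IFNα and 543 and 525 with IFNγ, a difference of 1.16 ± 0.20 (adjusted p = 0.00553). Irgm1, a regulator of the other family members, had 427 and 369 against 649 and 603 TPM (0.65 ± 0.13, adjusted p = 0.0144). These 3 calls depended on single libraries: those of Tgtp2 and Igtp were lost without any 1 of the 4 libraries, at differences of 1.28 to 1.53 and 1.14 to 1.19, and that of Irgm1 without either IFNγ library or the second IFNα library, at 0.55 to 0.71. Without 1 library 2 or 3 of the 10 members were called, with medians of 0.60 to 0.83. Gm12250 (Irgb10) did not follow the others, with 25.8 and 25.9 TPM with IFNα and 25.6 and 21.8 with IFNγ.

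Of the guanylate-binding proteins, GTPases that act on membranes of bacteria and parasites, some were called and others not. A difference between members was not tested, and Gbp4, not called, differed more (1.13) than Gbp11, which was called (0.96). Of 11 listed genes 10 were tested, and 3 were higher with IFNγ and none with IFNα (4 with the replicate number as a term of the model (a replicate block), at a median difference of 0.75 for the 10). Gbp10 had 0.12 and 0.49 TPM with IFNα and 4.69 and 2.72 with IFNγ (1.83 ± 0.19, adjusted p = 3.14e-05). Gbp6 had 17.99 and 15 against 46.5 and 39.6 TPM (1.33 ± 0.21), and Gbp11 6.86 and 6.27 against 13.3 and 14.1 TPM (0.96 ± 0.20). The call of Gbp6 was lost without the first IFNγ library (1.22), and that of Gbp11 without any 1 of the 4 libraries (0.90 to 1.02), so that 1 or 2 members stayed called. Gbp6 and Gbp11 were also not called with a pseudocount of 0.1, where Gbp10 alone of the 10 was called, and 1 of 8 members was called among genes with a mean of at least 5 TPM. Gbp6 and Gbp10 resemble each other closely in sequence, and reads that fit both may have been divided between them. With the compared groups alone 0 of the 10 were called. The most abundant members were not called. Gbp4 had 123 and 122 TPM with IFNα and 283 and 255 with IFNγ, a difference of 1.13 that was not called without the block (adjusted p = 0.1001) and was called with it (0.0194). Gbp2 had 659 and 488 TPM with IFNα and 1099 and 833 with IFNγ, from 313 and 165 in media, a difference of 0.75 ± 0.41 that was not called (adjusted p = 1). Gbp3 had 377 and 357 against 384 and 310 TPM, and the 2 groups overlapped. Gbp4, Gbp5 and Gbp7 were chosen after their values were seen. In Gbp5 and Gbp7 the groups also overlapped, with 51.1 and 37.9 against 51.2 and 39.2 TPM for Gbp5 and with 257 and 215 against 312 and 254 TPM for Gbp7.

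Tubb3 (chr8:123411553-123422015), which encodes a tubulin best known from neurons, had the largest difference of the 28 genes higher with IFNγ. It had 2.08 and 1.93 TPM with IFNα and 47.3 and 48.8 with IFNγ, against 1.74 and 1.26 in media, a difference of 4.03 ± 0.27 (adjusted p = 1.54e-07) and a 23.95-fold higher mean TPM. IFNα left it near its level in media (0.27 above media, adjusted p = 0.948). Enc1, which encodes a Kelch-repeat protein, had the same pattern at a lower level, with 3.70 and 3.02 TPM with IFNα and 17.5 and 17.2 with IFNγ (2.07 ± 0.25). BC023105 had 0.26 and 0.09 TPM with IFNα and 6.15 and 4.85 with IFNγ (2.46 ± 0.19), and Fam26f, of a family of membrane channels, had 14.3 and 14.7 against 54.5 and 38.9 TPM (1.60 ± 0.20). Gm12185 had 12.3 and 8.09 against 28.7 and 32.4 TPM (1.52 ± 0.33), a call lost without any 1 of the 4 libraries (1.24 to 1.79), with a pseudocount of 0.1, with no filter and among genes with a mean of at least 5 TPM. The remaining genes on the IFNγ side, chosen here after their values were seen, include Lmo4 (1.01), which stayed called without any 1 library, and Crem (1.40), the TNF receptor gene Tnfrsf1a (0.82) and the hexokinase gene Hk2 (0.63), which were not called in 3, 2 and 4 of those 4 fits.

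Of 24 tested genes listed as typical of IFNγ, 5 were higher with IFNγ (7 with a replicate block) and none with IFNα, at a median of 0.54. Beside Irf1, Irf8 and Batf2 these were Icam1 and Cxcl9. With the compared groups alone 0 of the 24 were called. Icam1, an adhesion molecule, had 226 and 197 TPM with IFNα and 383 and 365 with IFNγ (0.82 ± 0.13, adjusted p = 0.00257), and was not called without the second IFNα library (0.73, adjusted p = 0.05145). Cxcl9, a chemokine that attracts T cells, was at 0.07 and 0 TPM with IFNα and at 4.57 and 1.77 with IFNγ (1.92 ± 0.39, adjusted p = 0.0246). The call of Cxcl9 was lost without the first IFNγ library (1.42) and without either IFNα library (1.97 and 1.88), or with a pseudocount of 5 (0.68), and 2 to 5 genes of the list were called without 1 library. The chemokine gene Cxcl10, by contrast, had 274 and 116 TPM with IFNα and 265 and 214 with IFNγ, and the groups overlapped (0.42 ± 0.58, adjusted p = 1).

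**Figure D2:**
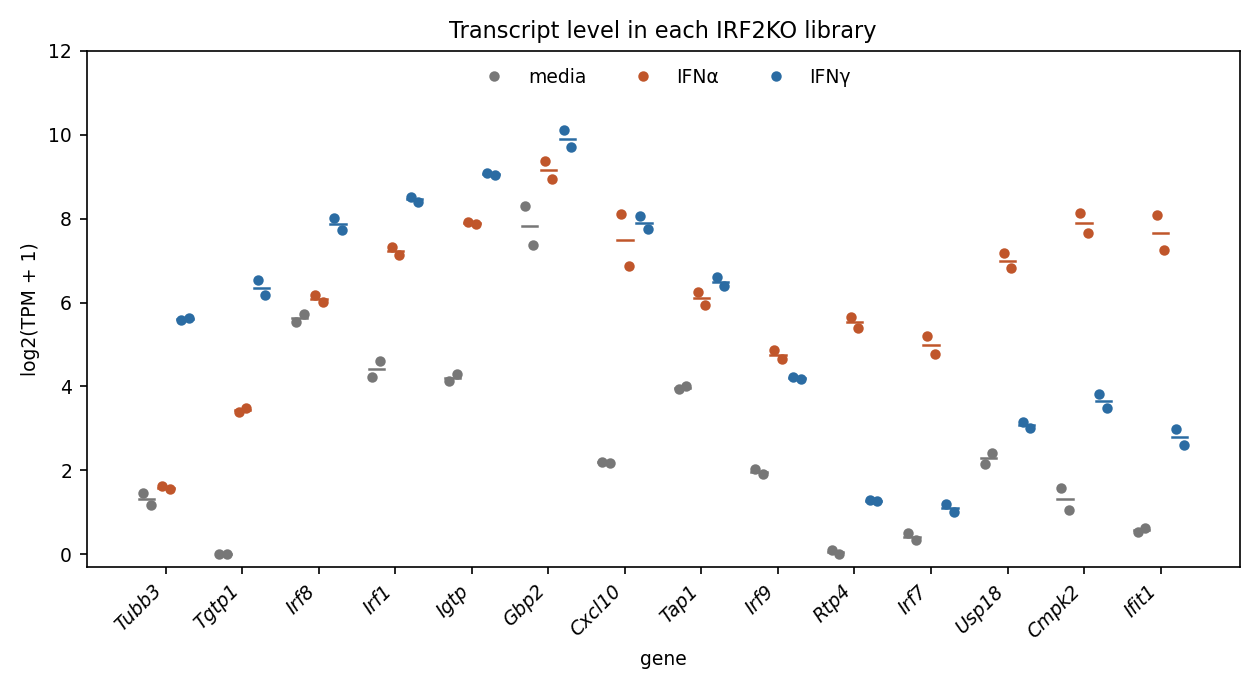
Log2(TPM + 1) of 14 genes in each of the 6 IRF2KO libraries, with 1 point a library and a short line at the mean of the 2 libraries of media (grey), IFNα (orange) and IFNγ (blue). Tubb3 and Irf8 with IFNα lie near media, Cxcl10 with both interferons lies at a like level, and Rtp4, Irf7, Usp18, Cmpk2 and Ifit1 lie several log2 units higher with IFNα than with IFNγ.

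On the IFNα side lay many of the antiviral genes listed as of the ISGF3 type. Of 46 listed genes 44 were tested; 29 were higher with IFNα (36 with a replicate block), 0 with IFNγ, and the median difference was −1.54. Ifit1 (chr19:34640889-34650009), whose product binds viral RNA, had 269 and 150 TPM with IFNα and 6.87 and 5.06 with IFNγ, from 0.45 and 0.55 in media (−4.87 ± 0.22, adjusted p = 6.10e-09). Isg15 (chr4:156199424-156200818), a ubiquitin-like protein that is joined to other proteins, had 132 and 98.7 against 5.32 and 3.24 TPM (−4.48 ± 0.38, adjusted p = 1.86e-06). Cmpk2, a mitochondrial nucleotide kinase, had 281 and 201 against 13.1 and 10.2 TPM (−4.25 ± 0.24). The lowest of these IFNα libraries exceeded the highest IFNγ library more than 10-fold for each of the 3 genes. Rtp4 had 49.6 and 41.0 TPM with IFNα and 1.46 and 1.40 with IFNγ (−4.25 ± 0.25), a 31.7-fold higher mean with IFNα. Usp18, the protease that removes ISG15 and restrains the type I receptor, had 144 and 112 against 7.89 and 7.06 TPM (−3.92 ± 0.22), and Mx1, a GTPase that blocks viruses, 21.9 and 16.5 against 0.79 and 0.33 TPM (−3.70 ± 0.27). Rsad2, which encodes the antiviral enzyme viperin, had 140 and 95.6 against 11.7 and 7.64 TPM (−3.48 ± 0.22). Ifit3 (−3.64), I830012O16Rik, a second Ifit3 gene (−3.50), and Mx2 (−3.39) differed to a like extent. Reads shared by the Ifit3 genes may have been divided between them. A fit of the compared groups alone, which leaves 2 residual degrees of freedom, called 5 of the 44. It did not call Ifit1, Isg15, Mx1, Rsad2, Ifit3 or I830012O16Rik. For all 10 genes named in this paragraph the call held without any 1 of the 4 libraries, and 24 to 28 of the list were called in those fits.

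The 15 tested members of that list that were not called include Adar, Dtx3l and Parp9, chosen here after their values were seen, with differences of −0.85, −0.72 and −0.62 (adjusted p = 0.102, 0.0514 and 0.0861). Slfn5 and Xaf1 were the only members of the 44 with a difference above 0, at 1.06 and 0.06, and their libraries varied widely (Slfn5 had 16.1 and 31.5 TPM with IFNα and 35.4 and 65.8 with IFNγ). IFNγ also raised part of the list: against media, 38 members were higher with IFNα and 13 with IFNγ. Ifit1, for example, was 7.08 above media with IFNα and 2.204 above media with IFNγ.

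The nucleic acid sensors that were called were all higher with IFNα. Of 25 tested sensor and Toll-like receptor genes 7 were higher with IFNα and none with IFNγ, at a median of −0.35; without 1 library 3 to 7 were called. Ddx58, which encodes the RNA sensor RIG-I, had 13.3 and 10.8 TPM with IFNα and 1.77 and 1.35 with IFNγ (−2.34 ± 0.19, adjusted p = 1.61e-06). Dhx58, which encodes its relative LGP2, had 7.33 and 4.64 against 1 and 0.85 TPM (−1.83 ± 0.19), where IFNγ left it at its level in media of 0.79 and 1.07. Ifih1, which encodes MDA5, had 1.46 and 0.91 against 0.08 and 0.17 TPM (−0.95 ± 0.15), a call lost without the first IFNα library (−0.76) and with a pseudocount of 5 (−0.27). Mndal, of the PYHIN family of DNA-binding proteins, had 74.1 and 71.7 against 40.2 and 31.3 TPM (−1.02 ± 0.16), a call lost without the second IFNγ library (−0.84). Ifi204 and Mnda of the same family (−2.04 and −2.06) and the DNA sensor gene Mb21d1 (cGAS, −0.66) were the other members called. With the compared groups alone 0 of the 25 were called. Ifi204 and Mnda lost their calls without the second IFNγ library (−1.55 and −1.78) or the first IFNα library (−1.73 and −1.65), and Mb21d1 without any 1 of the 4 libraries (−0.73 to −0.60).

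Of 14 inhibitors of cytokine signalling 2 were called, both lower with IFNγ. Cish, a SOCS-family gene known as a target of STAT5, had 135 and 90.02 TPM with IFNα and 56.4 and 40.6 with IFNγ, against 93.5 and 78.2 in media (−1.18 ± 0.26, adjusted p = 0.0465). Socs2, of the same family, had 72.9 and 66.3 against 50.1 and 43.8 TPM, and 67.2 and 64.4 in media (−0.56 ± 0.11, adjusted p = 0.0171). In both genes the IFNγ libraries also lay below both media libraries. Against media, limma called Socs2 lower with IFNγ (−0.48, adjusted p = 0.0477). It did not call Cish (−0.82, adjusted p = 0.268) except with the replicate block (adjusted p = 0.00745). Cish was not called without either IFNγ library or the first IFNα library (−1.42 to −0.90). With all libraries it was not called under either scaling (−1.13 and −1.14), with no filter, among genes with a mean of at least 5 TPM or with a pseudocount of 0.1. Socs2 was not called without the second IFNγ library or either IFNα library (−0.63 to −0.47). Socs1, the main inhibitor of IFNγ signalling, had 218 and 75.3 TPM with IFNα and 162 and 161 with IFNγ, so the groups overlapped. Among 17 cell death genes only Daxx, a histone chaperone, was called, with 84.2 and 68.5 against 37.9 and 27.8 TPM (−1.20 ± 0.14, adjusted p = 1.48e-04). Gsdmd, the gene of the pore-forming gasdermin D, had 4.89 and 3.31 against 5.21 and 3.07 TPM.

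Among receptors and presentation genes no call was made at this threshold. Over all genes tested 0.236% were called higher with IFNγ and 0.583% higher with IFNα. Lists this short can thus lack a call without differing from other genes. None of 13 receptor, JAK and STAT genes was called (1 in each direction with a replicate block), and 1 of those with the block was Stat2, a subunit of ISGF3, with 35.2 and 38.4 TPM with IFNα and 17.9 and 21.1 with IFNγ (−0.89 ± 0.26, adjusted p = 0.304, and 0.0295 with the block). None of 22 MHC class I presentation genes and none of 15 MHC class II genes was called, at medians of 0.00 and −0.06. Tap1, the peptide transporter subunit, had 74.9 and 60.8 TPM with IFNα and 96.8 and 82.8 with IFNγ, from 14.35 and 15 in media (0.40 ± 0.17, adjusted p = 0.858). Both interferons thus raised Tap1 against media, and the 2 groups did not overlap. The differences of Tap2, Psmb8, Psmb9 and Nlrc5, which serve the same pathway, lay between −0.09 and 0.38, and that of Ciita, the master regulator of MHC class II genes, was 0.56 ± 0.25 (adjusted p = 0.899). Cd274, the PD-L1 gene, had 122 and 90.3 against 121 and 108 TPM, from 44.4 and 32.5 in media, and the groups overlapped.

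Among the other lists, 1 of 19 cytokine and chemokine genes was higher with IFNγ (Cxcl9) and 0 with IFNα; with a replicate block 3 were higher with IFNα, among them Ccl4 (−1.13) and Ccl3 (−1.04). None of 9 checkpoint and costimulatory ligands, 15 NF-kB feedback genes, 14 constitutive proteasome subunits, 16 stress and immediate early genes or 13 tested macrophage markers was called. At the share called over all genes, lists this short can lack a call too. With the block 1 checkpoint gene was called in each direction, 1 NF-kB feedback gene was higher with IFNγ, and so were 2 stress genes. Of 8 tested dendritic cell markers 1 was higher with IFNγ, which was Irf8, and the median difference of the 8 was 0.07. The summed level of all 14, with Irf8 among them, was 874 to 1019 TPM with IFNγ and 625 to 780 with IFNα. Irf8 alone gave 258 and 212 TPM of the sums with IFNγ and 71.1 and 63.3 with IFNα. In Id2, the most abundant of these markers, and in Batf3 the groups overlapped. The sums thus do not show that the markers other than Irf8 were higher with IFNγ. The part of these markers in the other results was not tested.

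**Figure D3:**
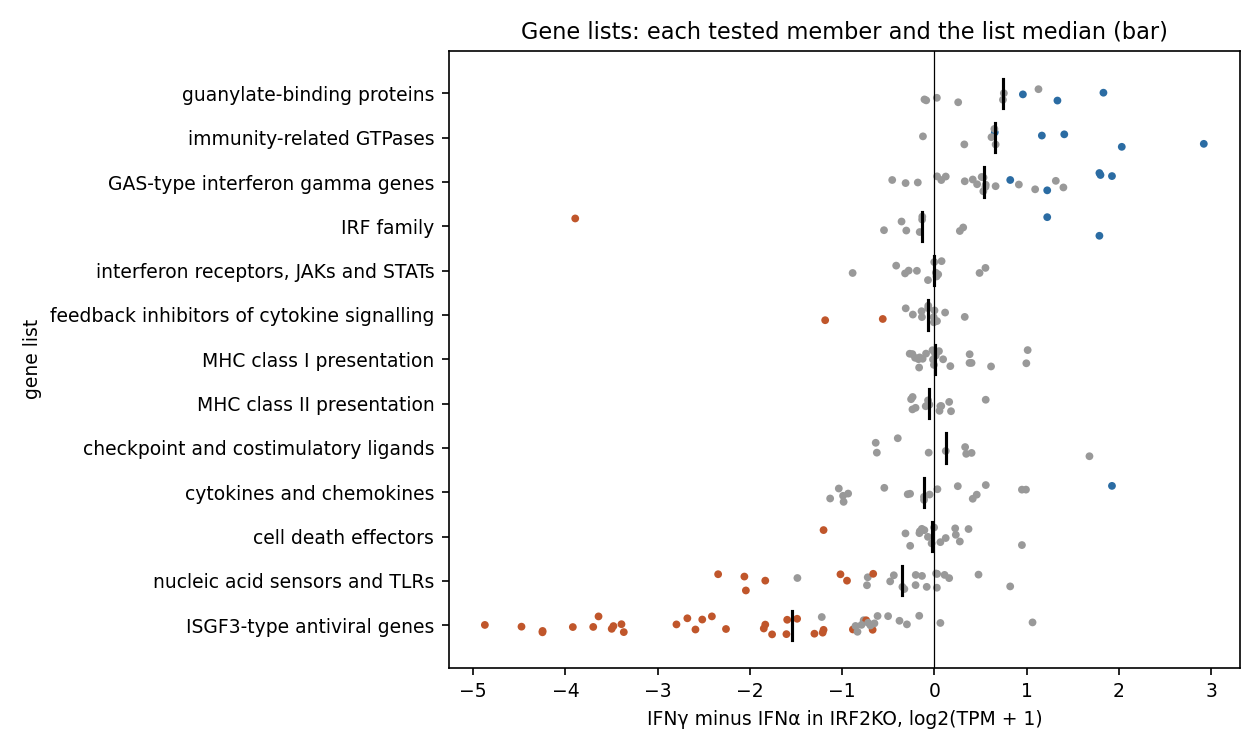
Each point is a tested gene of 1 of 13 lists, placed by its difference IFNγ minus IFNα in IRF2KO, with called genes in blue (higher with IFNγ) or orange (higher with IFNα), grey points not called, and a bar at the list's median. The ISGF3-type genes lie mainly to the left (median −1.54), the 2 GTPase families to the right (0.75 and 0.66), and MHC genes around 0.

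The sequence before the transcription start was read for the 2 motifs that the background names. The GAS motif was written as TTCNNNGAA and the ISRE as GAAANNGAAA, on both strands, in the 250 bases before each start in the RefSeq promoters of GRCm38.p6. A gene with several starts counted once if any of them held the motif. Of the 28 genes higher with IFNγ 20 had a promoter in the table, of which 9 held a GAS (45%) and 6 an ISRE (30%). Of the 69 higher with IFNα 57 had one, of which 7 held a GAS (12.3%) and 21 an ISRE (36.8%). Over the 9037 tested genes with a promoter the shares were 7.24% and 3.39%, and over all 32851 promoters 7.02% and 2.98%. A GAS and an ISRE overlapped in 0 and 1 promoters of the 2 called sets. A match is a description of letters and shows no binding. Shown are the 250 bases of 2 genes on each side, those with the largest difference among the named genes whose promoter was searched and held the motif. BC023105, Enc1, Iigp1, Batf2 and Gbp10, which differ more than Irf8, had no promoter in the table and were not searched. The GAS is in capitals for Tgtp1 (chr11:48992247-48992496, minus strand) and Irf8 (chr8:120736108-120736357, plus strand). The ISRE is in capitals for Ifit1 (chr19:34640639-34640888, plus strand) and Isg15 (chr4:156200819-156201068, minus strand).
Tgtp1: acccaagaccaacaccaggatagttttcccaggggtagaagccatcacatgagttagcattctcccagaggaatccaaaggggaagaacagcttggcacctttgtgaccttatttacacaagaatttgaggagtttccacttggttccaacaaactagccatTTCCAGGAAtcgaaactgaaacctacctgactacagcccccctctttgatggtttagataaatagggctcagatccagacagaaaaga
Irf8: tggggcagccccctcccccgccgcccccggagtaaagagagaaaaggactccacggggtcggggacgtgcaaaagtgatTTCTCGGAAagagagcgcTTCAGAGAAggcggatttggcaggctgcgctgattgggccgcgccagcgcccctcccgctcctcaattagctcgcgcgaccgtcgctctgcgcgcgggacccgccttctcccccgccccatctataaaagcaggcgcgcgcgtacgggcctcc
Ifit1: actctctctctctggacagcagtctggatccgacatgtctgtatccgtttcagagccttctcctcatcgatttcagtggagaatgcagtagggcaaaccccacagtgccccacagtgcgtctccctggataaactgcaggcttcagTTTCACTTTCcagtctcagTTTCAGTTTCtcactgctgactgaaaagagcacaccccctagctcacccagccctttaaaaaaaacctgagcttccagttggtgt
Isg15: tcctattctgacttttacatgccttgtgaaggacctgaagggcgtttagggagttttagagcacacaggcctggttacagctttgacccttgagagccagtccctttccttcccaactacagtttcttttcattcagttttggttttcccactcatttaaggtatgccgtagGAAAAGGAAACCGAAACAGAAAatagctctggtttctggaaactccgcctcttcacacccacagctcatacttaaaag
Tgtp1 has 1 GAS, whose bases lie 88 to 80 before the start, and also 1 ISRE. Irf8 has 2 GAS motifs and no ISRE in this window, beginning 171 and 153 bases before the start. Ifit1 has 2 ISRE motifs, on the opposite strand, at 104 and 85 bases before the start. Isg15 has 3 ISRE motifs that overlap one another, starting 78, 72 and 66 bases before the start. Tubb3 on the IFNγ side and Irf7 and Cmpk2 on the IFNα side held neither motif in their windows.

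The response of each interferon against IRF2KO cells in media gives the levels behind these differences; both use the libraries compared above, so their values are only set side by side. IFNγ raised 123 genes (1.04% of those tested) and lowered 11 (0.0929%), or 215 and 28 with a replicate block. IFNα raised 164 (1.38%) and lowered 1 (0.00844%), or 213 and 2 with the block. All 10 immunity-related GTPases rose with either interferon, and Irgm1 was 4.76 above media with IFNγ and 4.11 with IFNα. Of the 10 guanylate-binding proteins 8 rose with IFNγ and 5 with IFNα. Tubb3 and Irf8, in contrast, were 4.30 and 2.25 above media with IFNγ but only 0.27 and 0.46 with IFNα, which did not pass the test (adjusted p = 0.948 and 0.293). Rtp4 was 1.23 above media with IFNγ (adjusted p = 0.0192) and 5.47 with IFNα. Mx1 was 0.50 above media with IFNγ (adjusted p = 0.884) and 4.20 with IFNα.

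The same difference between the interferons can be read in WT cells, from other libraries with the same date-like codes in their titles. All 28 genes called higher with IFNγ in IRF2KO were also higher with IFNγ in WT, with a median of 1.5, and all 69 called higher with IFNα were higher with IFNα in WT, with a median of −1.07. In DKO all 97 kept their sign too, with medians of 1.21 and −1.54. The share of all genes tested that keep their sign is not given, so these counts have no baseline. Tubb3 differed by 4.19 in WT and 4.25 in DKO, and Irf8 by 2.19 and 2.11. The difference of the gap between IRF2KO and WT was tested gene by gene with limma. It called 0 genes and put 325 below 0.05 before adjustment, or 0 and 693 when the replicate number was a block. For Tubb3 the gap differed by −0.16, with a 95% interval of −0.99 to 0.66, and for Irf8 by −0.40, from −0.84 to 0.03. Over all genes tested 7953 of 11842 values lay below 0 and the median was −0.10. With median-of-ratios scaling 6051 lay below 0 and the median was −0.01.

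No interaction gene met the rule for named genes, and those that follow were chosen after their values were seen. In the GTPase families the gap of IRF2KO minus that of WT lay below 0 for 9 of 10 guanylate-binding proteins (median −1.12) and for 10 of 10 immunity-related GTPases (median −0.60), with 7 and 5 below 0.05 before adjustment. With median-of-ratios scaling the counts below 0 were the same and the medians −1.02 and −0.50. Gbp2 (chr3:142620663-142638008) had 34.8 and 33.7 TPM with IFNα and 334 and 344 with IFNγ in WT, a 9.90-fold ratio, against the 1.68-fold ratio in IRF2KO. In media Gbp2 stood at 4.48 and 0.92 TPM in WT and at 313 and 165 in IRF2KO. Its gap differed by −2.52 ± 0.57 (unadjusted p = 4.89e-04, adjusted p = 0.693, limma). Gbp5 was at 0.73 and 1.22 against 4.84 and 4.51 TPM in WT and differed by −1.51 ± 0.32, and Gbp7 at 33.5 and 37.7 against 96.7 and 98.1 TPM, differing by −1.17 ± 0.23; neither was called (adjusted p = 0.693 for both). The direction held for Gbp2, Gbp5 and Gbp7 with pseudocounts of 0.1 and 5 and with both scalings.

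The smallest adjusted p of this test was 0.244, for Rsad2 (−1.88 ± 0.31), and the direction of Rsad2 turned with the pseudocount. In WT, Rsad2 had 2.35 and 2.12 TPM with IFNα and 0.09 and 0.04 with IFNγ, so that the ratio of mean TPM was 34.4-fold in WT and 12.2-fold in IRF2KO. With a pseudocount of 0.1 the difference of the gap was 0.24, and with 5 it was −2.54 and called (adjusted p = 8.46e-06). Mx2 and I830012O16Rik turned likewise, from 0.41 and 0.49 with a pseudocount of 0.1 to −1.07 and −1.41 with 5. For Ifit1 the difference stayed below 0, at −0.97, −1.43 and −2.02 with pseudocounts of 0.1, 1 and 5, and the ratio was 18.04-fold in WT and 35.2-fold in IRF2KO. Rsad2, Ifit1 and I830012O16Rik were also called without the second IRF2KO IFNα library, at −2.15, −1.85 and −1.78 (adjusted p = 0.0394 for each).

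**Figure D4:**
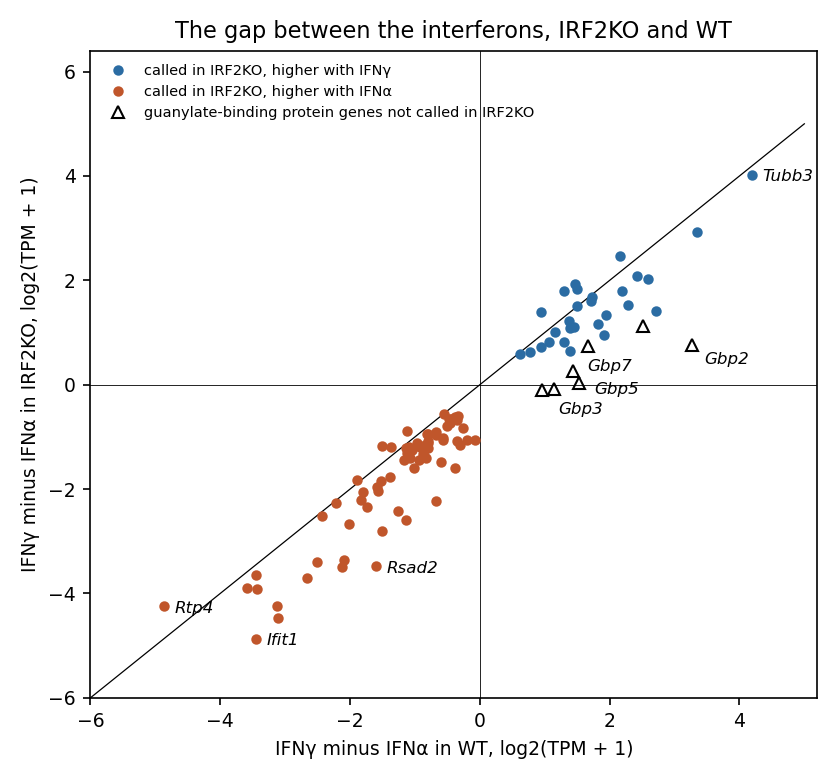
The difference IFNγ minus IFNα in IRF2KO (vertical) against that in WT (horizontal), log2(TPM + 1), for the 28 and 69 genes called in IRF2KO and for the guanylate-binding protein genes not called there (triangles). The diagonal marks equal differences; Gbp2 lies at 3.27 in WT and 0.75 in IRF2KO, and Tubb3 lies near the diagonal at 4.19 and 4.03.

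Against DKO, which differs from IRF2KO in the IRF1 label, limma called 0 genes too and put 264 below 0.05 before adjustment, or 0 and 561 when the replicate number was a block. The smallest adjusted p was 0.0787, for Gbp10 and BC023105, chosen after their values were seen. Gbp10 was at 0 and 0 TPM with IFNα and 0 and 0.11 with IFNγ in DKO, against 4.69 and 2.72 with IFNγ in IRF2KO, and the gap differed by 1.76 ± 0.27. BC023105 was at 0 and 0.14 against 0.46 and 1.27 TPM in DKO (1.69 ± 0.27). Iigp1 had 1.65 and 2.34 against 2.19 and 5.41 TPM in DKO and differed by 1.43 ± 0.35 (adjusted p = 1). In all 3 the value lay above 0 with each pseudocount tried, and were called with a pseudocount of 5 (0.69, 0.81 and 1.36). Gbp10 and BC023105 were called too with median-of-ratios scaling (adjusted p = 0.0318 for each) and with no filter (adjusted p = 0.0146 for each). Gbp10 was also called without the second IRF2KO IFNγ library (2.06), and BC023105 and Iigp1 without the second DKO IFNγ library (2.01 and 1.93). For Irf1 itself the gap differed by −0.12, with a 95% interval of −0.64 to 0.40, and Irf1 mRNA in DKO was 230 and 251 TPM with IFNα and 593 and 632 with IFNγ, so that its level does not check the label.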

How the data were processed

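The authors deposited 1 table of TPM for 30 libraries, made from total RNA. Per the submitters' processing notes, the tools were RSEM, which divides reads that fit several genes, Bowtie 0.12.2 and bcl2fastq 2.20, and the builds mm10 and GRCm38. Rows of 1 gene symbol were summed (41346 rows, 31427 symbols). R 4.3.3 and limma 3.58.1 served to fit log2(TPM + 1) of the 24 replicated libraries, with a mean for each of 12 groups, a trended prior variance and 12 residual degrees of freedom (11 with the replicate block). The 11842 genes tested reached 1 TPM in 2 or more libraries, with two-sided tests, Benjamini-Hochberg adjustment within a comparison and calls at an adjusted p under 0.05. The method was run on simulated data with independent noise and with changes placed only in genes above a minimum mean level. That run does not cover deviations shared by replicates or calls at low TPM. No sequencing depth can be given for TPM.

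In the titles, a date-like code goes with each replicate number, so the numbers can be read as pairs. The main fit, with its SEs and p-values, did not use this pairing. Only the replicate block did, as an alternative. Deviations from the group means correlated over 0.1 in 56 of 66 pairs of groups (0.326 for IRF2KO with IFNα and IFNγ). Each code holds 1 library a group, so no test within a code was possible. The text names the 10 called genes of largest change on each side whose higher group averaged 5 TPM or more and whose groups did not overlap, up to 4 called members of each list, and 22 genes fixed by name; 52 genes resulted, of which 1 is not reported here. The members and the 20 gene lists were chosen with earlier results of these data known. Lists held 354 symbols, 6 matched by synonym. Alternatives were pseudocounts of 0.1 and 5, 2 filters, median-of-ratios and quantile scaling, robust variances, a fold of 2, the block, leaving out 1 library and a fit of the compared groups alone. Promoters and names came from RefSeq tables of GRCm38.p6. Python 3.11.15 with pandas 2.3.3, numpy 2.4.6 and matplotlib 3.10.9 drew the plots.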

Additional observations from a re-analysis of the deposited data

Results flagged for a closer look

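The comparison did not use the 6 single libraries, which have no replicate, and a signal was seen there. Of the 69 genes higher with IFNα than with IFNγ in IRF2KO, 57 were at least 2-fold higher on the log2(TPM + 1) scale in the single IRF2KO library at 2 h of IFNα than in the one at 0 h, and 66 were higher at all, with a median difference of 2.23. Of the 28 genes higher with IFNγ, 11 were at least 2-fold higher and the median was 0.62. Of the 10410 genes with at least 1 TPM in 2 or more of the 6 single libraries, 188 were at least 2-fold higher. Their median was 0.00064. No such filter was put on the 69 and the 28, of which 1 each was listed at 0 TPM in both IRF2KO libraries. Ifit1 had 5.64 TPM at 0 h and 650 at 2 h, and Irf8 had 44.2 and 69.9 TPM. With 1 library each, these differences were not tested.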

How the results depend on the processing

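No called named gene changed sign under any alternative; among those not called, Socs1, Gbp3, Gsdmd, Tap2, Psmb8, Nlrc5, Cd274 and Cxcl10 did when 1 library was left out (Socs1 from −0.43 to 1.09, Cxcl10 from −0.20 to 1.04). Genes called for IFNγ against IFNα in IRF2KO numbered 97, and 61 with a mean of at least 5 TPM, 148 with the replicate block, 7 with the compared groups alone (which leaves 2 residual degrees of freedom) and 59 to 84 without 1 library, the lowest without the first IFNα library. Against media IFNγ called 134 genes, 243 with the replicate block, 63 with the compared groups alone and 67 to 103 without 1 library (67 without the first IFNγ library, 83 without the first media library). IFNα called 165, 68 with the compared groups alone and 108 to 160 without 1 library (108 without the first IFNα library). The gap between the interferons differed from WT in 0 genes, in 7 with a pseudocount of 5, in 4 with no filter and in 0 to 3 without 1 library (3 without the second IRF2KO IFNα library). It differed from DKO in 0 genes, in 3 with a pseudocount of 5, in 4 with no filter, in 2 with median-of-ratios scaling and in 0 to 3 without 1 library (3 without the second DKO IFNγ library). With 1 library left out, the lone library is assumed to vary like the other groups. Beyond fewer samples, the cause was not tested. Of the 52 named genes, 30 lost their call with the compared groups alone, 5 with a pseudocount of 0.1, 2 with 5, 2 with no filter and 2 with a mean of at least 5 TPM; Cish lost it under each of these except a pseudocount of 5, and was the 1 loss under each scaling. Irf9 was called with a pseudocount of 5 (adjusted p = 0.0441). The replicate block changed 1 named call, that of Stat2. All 97 calls remained with the block. Depth limits low genes by an unknown amount.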
